A study of Mus musculus with 5 samples.

Results

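Promoter regions of mouse muscle stem cells (MuSCs) that carried both the transcription factor mJunB and acetylated histone H3 lysine 27 (H3K27ac) were described from CUT&RUN-seq peak lists. The regions were chosen by merging the mJunB peaks of 4 libraries wherever they overlapped or touched, on chromosomes 1 to 19 and X, and by keeping those within 3 kb of an annotated transcription start site (TSS) that overlapped an H3K27ac peak by 1 bp or more. Of 18748 merged mJunB regions, 4233 (22.6%) met this rule and are called members here. Another 2723 regions lay at promoters without H3K27ac, 3802 were distal (over 3 kb from a TSS) with H3K27ac and 7990 were distal without it.

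The mJunB lists came from 3 libraries labelled as biological replicates of young mice and from 1 library labelled aged, and the single H3K27ac library carries no age label. The study's methods link the H3K27ac data to a UCSD epigenome mapping project, and the mice behind this library, which defines every member, are not given in the sources used here. All 5 libraries are labelled as MuSCs of muscle. For young and aged mice the methods describe a sort from hindlimb muscle of cells negative for CD45, CD31 and SCA1 and positive for VCAM. Peak names of young replicate 1 carry the tag gfp, which the labels do not explain, and the methods name a sort for GFP for another set of mice (control and Junb knockout), so whether this replicate came from the VCAM sort is not known. The labels give neither the strain, the age in months nor a treatment for these libraries, whereas the series' design text assigns the mJunB libraries to mice given DMSO or MVC. The grouping into young and aged follows the sample labels. With 1 aged library no test between ages was possible, and an effect of age cannot be told apart from differences between libraries.

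The lists differed in size and in the threshold they had passed. On the chromosomes used, there were 9327, 4799 and 3796 peaks for young replicates 1, 2 and 3, 13971 for the aged library and 39473 for the H3K27ac library. The lowest −log10 p in the list was 3.01 in young replicate 1 and the aged library but 5.33 and 5.22 in the other two. Read counts are not part of the lists, which leaves the depth unknown, and all binomial intervals below (exact Clopper-Pearson, 95%) cover counting error of peaks only. The cell type was checked on the H3K27ac list, where 7 of 10 MuSC marker genes had a promoter peak, against 50.2% of all protein-coding genes. These peaks were weak, with the highest fold enrichment per gene between 2.29 and 3.17, against 2.82 to 4.10 at the markers of other cells with a peak. Pax7, Myf5 and Calcr, which define quiescent MuSCs, had none. Of the markers of other cells, a promoter peak was found for 1 of 5 fibro-adipogenic progenitor genes (Dcn), 3 of 5 endothelial genes (Pecam1, Tek and Cldn5), 1 of 5 immune genes (Csf1r), 3 of 5 myofibre genes (Myh1, Myh2 and Tnnt3) and 3 of 5 smooth muscle and pericyte genes (Acta2, Kcnj8 and Mylk), and the part of such cells in the member set was not tested.

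JunB belongs to the AP-1 family, whose Jun and Fos proteins pair through leucine zippers and bind the sequence TGACTCA, read as TGAGTCA on the other strand. AP-1 responds within minutes to growth factors, cytokines and stress, and in many tissues it acts mostly at enhancers. H3K27ac marks active promoters and enhancers, where the acetylated nucleosomes flank the nucleosome-poor DNA at the start site itself.

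The sequences at the summits, the positions of highest signal within the peaks, showed which kinds of DNA lay under the members. Among the 10 strongest members shared by all 4 libraries and the 43 members at the AP-1, immediate-early, MuSC identity and senescence-associated secretory phenotype (SASP) genes described below, 0 had the AP-1 motif within 50 bp of a summit in any library. Of all members, 185 had it in 1 or more libraries, 17 in 3 or more and 5 in all 4. Those 5, which were picked after their values had been seen, are shown first, followed by 2 of the strongest members that lack the motif. Each stretch is the plus strand of GRCm38, centred on the summit of the library with the highest fold enrichment, and capitals mark the AP-1 motif.

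The Rap2a site (chr14:120478009-120478109) is intergenic, and the member ends 137 bp from the TSS.
Rap2a: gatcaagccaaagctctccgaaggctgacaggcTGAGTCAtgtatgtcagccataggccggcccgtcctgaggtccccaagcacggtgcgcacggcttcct
The Etv5 site (chr16:22439873-22439973) is intergenic, in a member that ends 13 bp from the TSS. It also holds CCAAT and, read on the other strand, TATAAA.
Etv5: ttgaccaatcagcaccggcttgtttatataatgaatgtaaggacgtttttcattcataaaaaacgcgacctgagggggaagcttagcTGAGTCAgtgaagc
The Capn2 site (chr1:182520354-182520454) is intergenic, in a member 2618 bp from the TSS, and its motif starts at the summit base.
Capn2: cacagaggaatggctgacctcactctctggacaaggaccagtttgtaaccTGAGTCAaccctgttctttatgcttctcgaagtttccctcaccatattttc
The Anxa7 site (chr14:20478772-20478872) is in an intron, in a member 631 bp from the TSS, and also holds CCAAT.
Anxa7: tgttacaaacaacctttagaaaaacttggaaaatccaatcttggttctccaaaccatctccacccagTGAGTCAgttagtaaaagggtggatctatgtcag
The Gm18723 site (chr16:56096591-56096691) is in the exon of a processed pseudogene that lies within the Senp7 gene, and its 2 motif copies stand in a tandem repeat.
Gm18723: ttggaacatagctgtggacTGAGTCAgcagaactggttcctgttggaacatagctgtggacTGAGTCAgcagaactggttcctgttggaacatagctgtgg
The Lmna site (chr3:88503471-88503571) is in an intron.
Lmna: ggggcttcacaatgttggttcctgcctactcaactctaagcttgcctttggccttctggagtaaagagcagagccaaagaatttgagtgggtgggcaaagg
The Spaca6 site (chr17:17838164-17838192) is in an exon, and 29 bases around the summit are shown.
Spaca6: acccaaacacggtgggaccttttcctgcg

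The members were shared unevenly between the libraries. A peak was present in all 4 mJunB libraries at 788 members (18.6%, interval 17.5 to 19.8%), and in the aged library alone at 2025 (47.8%, interval 46.3 to 49.4%). At 1809 members (42.7%) the aged peak was joined by 1 or more young peaks, and 399 (9.43%) had young peaks only, of which 36 were in all 3 young libraries. Most young members recurred in the aged list, with an aged peak at 83.0%, 90.5% and 93.0% of those of young replicates 1, 2 and 3, whereas 41.6%, 32.9% and 25.4% of the aged members had a peak in those libraries. Among the young libraries, 84.5% of the members of replicate 2 and 87.8% of those of replicate 3 had a peak in replicate 1, but 61.3% and 47.8% of those of replicate 1 had one in replicates 2 and 3. With the 2000 peaks of highest −log10 p per library, 36.6% of the aged members (302 of 825) were in that library only. For young replicates 1, 2 and 3 the shares were 9.07%, 6.92% and 7.45%. A young peak could recur in other libraries of its own group and an aged peak could not, so the aged and young shares are not alike by design.

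**Figure D1:**
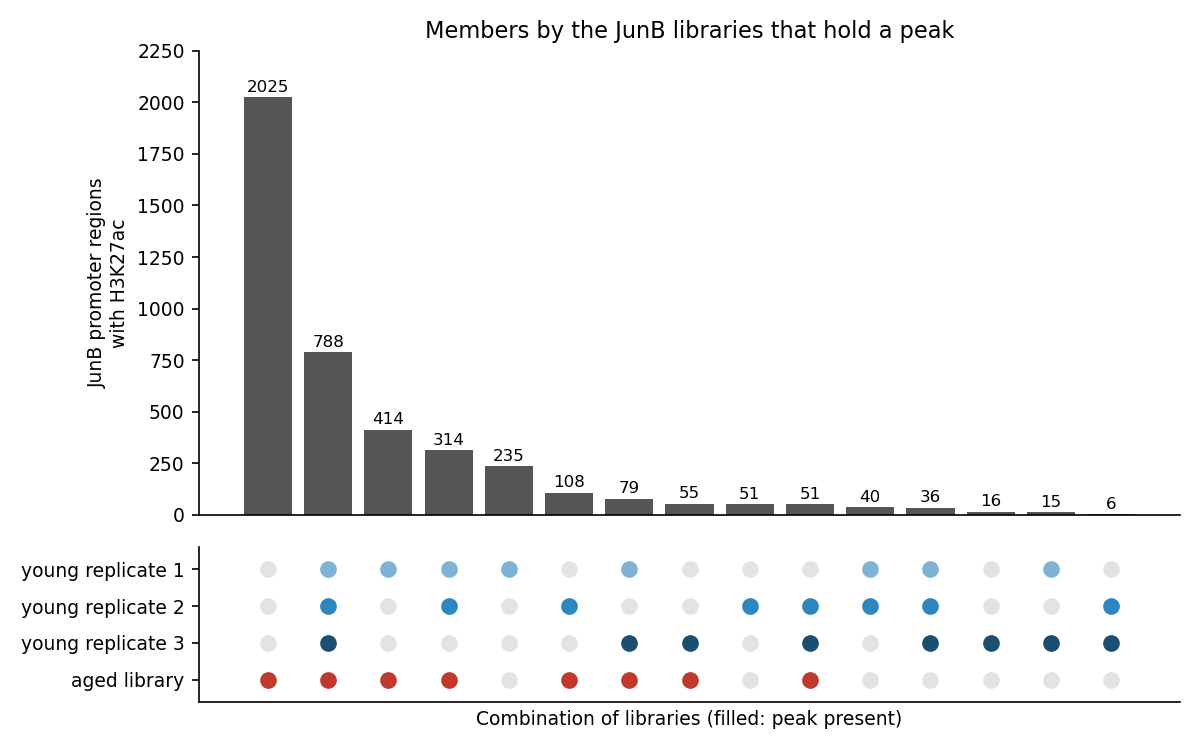
The bars give the number of members for each of the 15 combinations of mJunB libraries with a peak, and the filled dots below name the libraries. Aged only (2025) and all 4 libraries (788) are the most frequent combinations.

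The share of regions found in the aged library alone was 47.8% among members, 57.1% (interval 55.2 to 59.0%) at promoters without H3K27ac and 27.1% (interval 25.7 to 28.5%) at distal regions with H3K27ac. Each library was then limited to its 2000 strongest peaks, ranked here and below by −log10 p and not by fold enrichment. This left 1086 members, of which 27.8% were aged only and 27.7% were in all 4 libraries. In that setting 41.3% of the aged peaks were at members (interval 39.1 to 43.5%), against 28.1%, 29.2% and 28.0% in the 3 young libraries, so the aged value lay outside the range of the young libraries. With the lists as deposited, members took 27.5% of the aged peaks and 20.8%, 29.3% and 28.0% of the young ones (26.0 ± 4.56%, SD, n = 3), a range that includes the aged value. With a common lower limit of −log10 p, chosen after seeing the data, the aged share was 31.6%, above the 23.1%, 29.3% and 28.0% of the young libraries.

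Members found in all 4 libraries had higher fold enrichment (signal at the summit divided by the background expected around it) than members of 1 library. In what follows, 4 values in a row without further labels are those of young replicates 1, 2 and 3 and then the aged library. The medians of members in all 4 were 8.80, 8.99, 8.78 and 7.78. Members found in a single library had medians of 4.57 (235 members), 6.06 (51), 5.91 (16) and 4.79 (2025). The sharing of a region depends on its passing each library's threshold, and this difference is therefore given without a test. Fold enrichment is relative to each library, and for members in all 4 libraries the aged median was the lowest. A lower aged value at a single member below cannot be told apart from this difference between libraries.

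Across all member peaks, the median fold enrichment was 5.95, 7.59, 8.06 and 5.42. The peaks at promoters without H3K27ac had medians of 4.98, 7.40, 7.96 and 4.81. Members were higher in 4 of 4 libraries, by 0.467 ± 0.403 on average (SD, n = 4, exact two-sided sign-flip permutation test over libraries, p = 0.13, adjusted p = 0.13 over 3 tests). That p is the smallest that 4 libraries allow, so no test of this kind could pass 0.05. The difference was 0.972 in young replicate 1 against 0.609 in the aged library, but 0.186 and 0.100 in young replicates 2 and 3, whose lists began at a higher −log10 p. The difference was not above 0 in all 4 libraries with 1 start per gene, with 50% of the region or the summit in H3K27ac, or with H3K27ac peaks of −log10 q of at least 10.

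Most members lay on or next to a start site. A TSS fell inside 2334 of the 4233 regions (55.1%, interval 53.6 to 56.6%), and 3417 (80.7%, interval 79.5 to 81.9%) were within 500 bp of one. Another 238 (5.62%) were over 2000 bp away. At promoters without H3K27ac, 23.0% spanned a TSS and 50.5% were within 500 bp (interval 48.6 to 52.4%).

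Distance varied with the libraries that held the peak. Of members found in the aged library only, 88.0% were within 500 bp of a TSS (interval 86.5 to 89.3%), against 75.5% of those in all 4 libraries (interval 72.3 to 78.5%) and 55.4% of those in young libraries only (interval 50.4 to 60.3%). By summit, 65.0%, 66.9% and 65.8% of member peaks were within 500 bp of a TSS in young replicates 1, 2 and 3 (65.9 ± 0.927%, SD, n = 3) and 77.8% in the aged library. The aged value stayed above every young library when each was limited to its 2000 strongest peaks, at 76.4% (interval 73.3 to 79.3%) against 62.3%, 63.0% and 66.0%.

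In all 4 libraries the fullest 100 bp bin of summits was the first one downstream of the TSS, with 14.01%, 14.7%, 13.2% and 19.6%. The young libraries had another high bin from 200 to 300 bp upstream, with 9.84%, 10.4% and 11.2%, and held 7.88%, 7.82% and 8.11% in the last bin before the TSS. The median absolute distance was 269, 268, 268 and 176 bp. Slightly more than an equal share of summits lay upstream, with 52.5%, 54.9%, 55.3% and 50.4%.

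**Figure D2:**
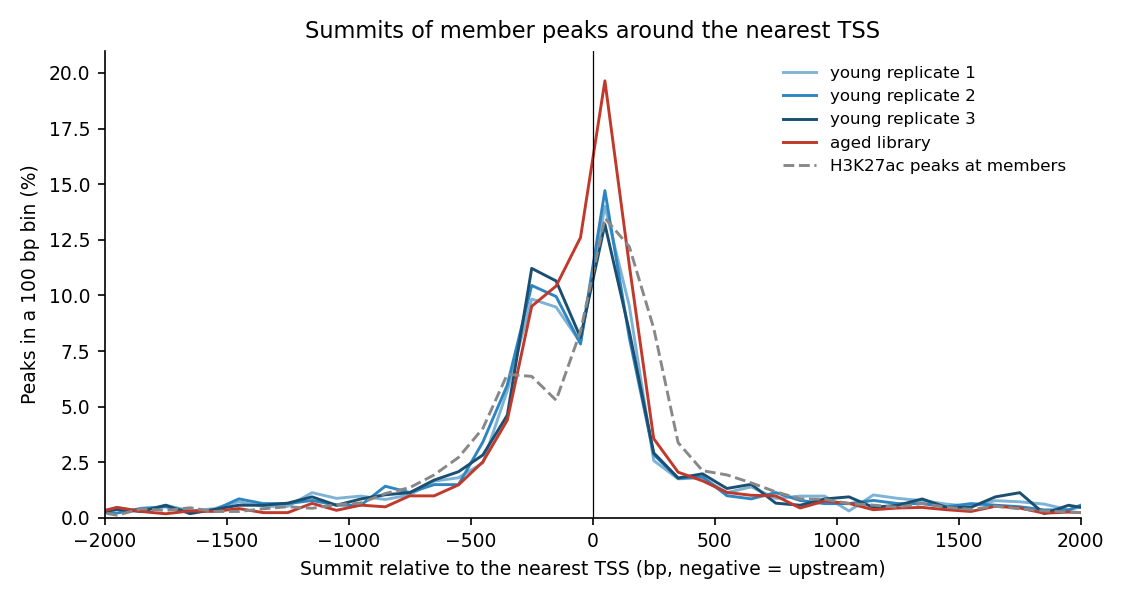
Lines give the percent of member peaks with their summit in each 100 bp bin around the nearest TSS for the 4 mJunB libraries (solid) and for the H3K27ac peaks at members (dashed). The aged line reaches 19.6% just downstream of the TSS, and the young lines 13.2% to 14.7%.

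TSSs on both strands within 1 kb were found at 24.2% of members (interval 22.9 to 25.5%) and at 8.34% of promoters without H3K27ac (interval 7.32 to 9.44%). Divergent promoters have this arrangement, but these shares do not give the orientation of the TSSs to each other. Members also lay within 500 bp of a TSS more often (80.7% against 50.5%), and the part of this in the difference was not tested. The share with TSSs on both strands was 27.7% among aged-only members, 20.7% among members in all 4 libraries and 14.5% among young-only members.

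Members were then compared with the H3K27ac peaks they overlapped. H3K27ac covered a median of 100% of the region, and 2154 members (50.9%) lay wholly inside it. Of the mJunB summits, 86.5%, 86.2%, 85.4% and 86.8% fell inside an H3K27ac peak. The H3K27ac summit was a median of 187.5, 188, 204 and 191 bp away from the mJunB summit. The mJunB summit was the one nearer to the TSS in 58.0%, 56.7% and 56.0% of the young peaks and in 62.0% of the aged ones.

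Seen from the acetylation, the H3K27ac library had 16037 promoter peaks, of which 4232 (26.4%) overlapped an mJunB peak of any library. The share was 11.9%, 8.57% and 6.4% for young replicates 1, 2 and 3 and 24% for the aged library. When the H3K27ac promoter peaks were divided into quintiles of their fold enrichment, the share with an aged mJunB peak rose from 14.8% in the lowest to 37.0% in the highest quintile. In young replicate 1 it went from 9.82% to 15.9%, in replicate 2 from 6.80% to 12.0% and in replicate 3 from 5.24% to 9.07%, and in all 3 the second quintile was the lowest. The strongest quintile was also wider, with a median H3K27ac width of 1046.5 bp against 513.5 bp in the weakest. Counting only mJunB summits within 250 bp of the H3K27ac summit, which leaves the width out, the aged share was 8.07% in the lowest and 24.5% in the highest quintile, and the young shares were 5.64% and 10.8%, 4.21% and 8.32%, and 3.12% and 6.02%. Overlap chose the members, so these values are a description without a test.

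**Figure D3:**
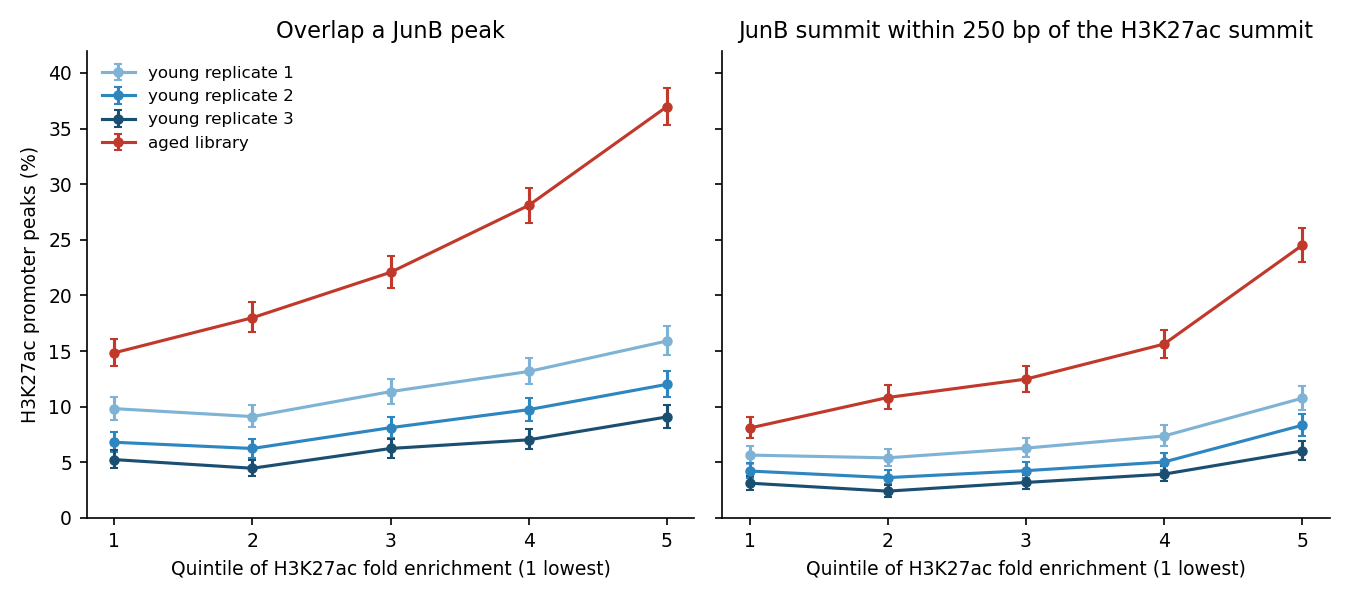
Points give the percent of H3K27ac promoter peaks in each quintile of H3K27ac fold enrichment that overlapped an mJunB peak (left) or had an mJunB summit within 250 bp (right), with exact 95% binomial intervals. In the highest quintile the aged library reaches 37.0% and 24.5%, above each young library.

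Within the members, the H3K27ac fold enrichment had a median of 4.33 at aged-only regions, 4.12 at regions in all 4 libraries and 3.86 at young-only regions. The quartiles overlapped widely, from 3.55 to 5.18 at aged-only and from 3.14 to 4.76 at young-only members.

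The start sites were mostly those of protein-coding genes. The nearest TSS belonged to a protein-coding gene at 3558 members (84.1%, interval 82.9 to 85.1%), against 67.3% of promoter regions without H3K27ac (interval 65.5 to 69.0%). Ties, as between several TSSs inside a region, went to the protein-coding gene. A TSS lay inside 55.1% of members and 23.0% of those regions, so this rule can raise the members' share more. Counting any protein-coding TSS within 3 kb, which the rule does not affect, the shares were 88.2% and 71.3%. The members had 4154 protein-coding genes within 3 kb, which is 19.1% of the 21755 annotated ones, and 4150 of them were among the 10921 genes with an H3K27ac promoter peak (38% of these). In addition, 776 genes (3.57%) had a member in all 4 libraries. Of these 4154 genes, 1860 had both a young and an aged member peak, 2048 an aged one only and 246 a young one only. In all, 1512 members were within 3 kb of the TSSs of 2 or more genes, so a gene named below may share its region with a neighbour.

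The other 675 members had another type of nearest gene, of 19 types seen in all, and 174 of them also had a protein-coding TSS within 3 kb. The most frequent types were lincRNAs, long RNAs transcribed between genes, with 224 members (5.29%), antisense RNAs with 103 (2.43%), TEC models (transcripts to be experimentally checked) with 81, processed pseudogenes with 57, processed transcripts with 56, miRNAs with 34, snRNAs with 30 and bidirectional promoter lncRNAs with 22. Of the lincRNA members, 12.5% also had a protein-coding TSS in reach, against 95.5% of the bidirectional promoter lncRNA members. Aged-only regions made up 50.2% of the protein-coding members, 35.3% of the lincRNA members, 26.3% of the processed pseudogene members and 72.7% of the bidirectional promoter lncRNA members. Among the types with 20 or more members, processed pseudogenes lay farthest from a start, with 12.3% within 500 bp of it against 85.4% of the protein-coding members.

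The lincRNA members with the highest fold enrichment were those at Gm47851 (chr13:103977983-103978760), with 17.9, 18.7, 17.5 and 10.4, and at Gm35333 with 18.7, 14.5, 14.4 and 10.7. At both the aged value was the lowest. Among antisense RNAs, 2010001M07Rik had 16.8, 14.6, 16.4 and 8.27 and 1700110K17Rik had 15.7, 9.92, 9.93 and 10.7, so that in the second the aged value lay within the young range. The strongest TEC members were at Gm44936 (17.6, 17.02, 15.1 and 9.79) and AC167363.2, whose region is described with Cdkn1a.

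The strongest processed pseudogene members were at Ftl1-ps2 and Rpl21-ps8, described below. Of the processed transcripts, Gm49319 had 14.3, 13.7, 12.8 and 8.45 and 1810059H22Rik had 13.2, 11.6, 9.68 and 11.8. The miRNA members were led by Mir3109 and by Mir6390, the latter with 11.5, 14.04, 10.6 and 9.44. At snRNA genes, Gm25201 had 12.7 and 7.12 in young replicates 1 and 2, no peak in replicate 3 and an aged value of 4.94, while Gm25132 had 10.97, 9.94, 8.42 and 11.98. The strongest bidirectional promoter lncRNA members, at Gm26512 (7.79, 9.86, 10.6 and 6.66) and 2310010J17Rik (10.3, 7.96, 8.05 and 6.95), both spanned a TSS and had the aged value lowest.

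The 10 strongest members present in all 4 libraries, by the geometric mean of fold enrichment, mixed coding genes with pseudogenes. The first, 1764 bp from the pseudogene Ftl1-ps2 (chr10:130594469-130595116), had 27.5, 26.4, 22.5 and 22.1, and its H3K27ac fold enrichment was 25.3. Its summit window was 100% repeat-masked in the reference, against 0% to 22.8% in the other 9, and the part of repeated sequence in these values was not tested. The member at Lmna (chr3:88503286-88503976), which encodes the nuclear lamins A and C, followed with 23.4, 24.4, 19.8 and 14.5. The third was 1146 bp from Rpl21-ps8, a pseudogene of a ribosomal protein, with 27.01, 22.02, 22.4 and 11.04.

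At Spaca6, a gene needed for sperm and egg fusion, the values were 22.2, 22.7, 19.1 and 15.1. The member 161 bp from a TSS of Synpo, the gene of the actin-binding protein synaptopodin, had 24.5, 22.6, 20.7 and 12.6. Traf2, an adaptor of TNF receptor signalling, had a member 1442 bp from a TSS with 20.1, 22.96, 20.7 and 14.4. In each of these the aged value was the lowest, as was the aged median over all members in all 4 libraries.

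Piezo1, which encodes a mechanically gated ion channel, had 21.9, 21.5, 21.02 and 13.03 at 1839 bp from a TSS (chr8:122548597-122549490). Jmjd1c, a gene of the jumonji-domain family of histone demethylases, had 22.8, 20.5, 17.98 and 15.2 over a TSS. The last 2 were the pseudogene Pdxk-ps with 20.3, 17.3, 22.1 and 16.4 and Mir3109 with 20.95, 21.6, 21.8 and 11.8. The H3K27ac fold enrichment of the 9 members after Ftl1-ps2 was between 2.40 and 5.90, and none of the 10 summit windows had the AP-1 motif.

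The members found in the aged library alone were weaker. The 5 strongest lay over the TSSs of Soat1, a cholesterol-esterifying enzyme (10.3), Trim28, a co-repressor of zinc finger proteins (10.2), Pop7, a subunit of ribonuclease P (10.1), Ttc14 (9.98) and Ate1, an arginyltransferase (9.86). Their H3K27ac fold enrichment was 3.80, 4.50, 6.17, 7.20 and 5.92.

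The strongest of the 36 members present in all 3 young libraries and not in the aged one included 3 near non-coding genes. Gm36981 had 14.95, 13.3 and 11.97 in young replicates 1, 2 and 3, Gm36426 had 12.9, 13.1 and 11.1, and Gm43417 had 9.84, 10.7 and 12.2. Plk3, a stress-responsive kinase, followed with 7.77, 11.4 and 13.9, and Ap1b1, a subunit of the clathrin adaptor complex, with 8.10, 11.9 and 11.4. None of these 5 spanned a TSS, their distances being between 406 and 2430 bp.

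A group of members, mostly at predicted genes, stood apart by the significance of their peaks. Of the members, 12 touched 1 of the 20 H3K27ac peaks of highest −log10 p. Of these, 7 lay at the start of chromosome 9 at predicted genes such as Gm10722 (chr9:3000135-3002383), where the fold enrichment was 9.22, 8.75, 8.88 and 3.21 for mJunB and 7.59 for H3K27ac. At Gm10800 the −log10 p reached 54594.4 in young replicate 2. These 12 sites were left out of the ranking above but are among the 4233 members, and without them 4221 members remained. The part of repeated sequence or read mapping in their values was not tested. In addition, 4.94%, 5.54% and 5.56% of the member summit windows of young replicates 1, 2 and 3 and 3.85% of the aged ones were at least 50% repeat-masked in the reference, against 4.82% of all protein-coding promoters.

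The values on either side of the limits of the rule are given as a description. The members farthest from a TSS were at Osgin1 (2999 bp, fold enrichment 15.03, 15.3, 14.5 and 7.76) and Gm42753 (2996 bp, 12.6, 11.6, 13.4 and 8.95). The nearest regions beyond the limit were at Gm22518 (3013 bp, 4.38 in the aged library alone) and Dot1l (3014 bp, 9.13, 8.50, 7.66 and 6.25). The smallest overlap with H3K27ac, 1 bp, was that of an aged-only member over a TSS of Pnkd, with 6.06.

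The AP-1 motif was rare at member summits. It was present within 50 bp of 80 of 1942 summits in young replicate 1 (4.12%, interval 3.28 to 5.10%), 42 of 1407 in replicate 2 (2.99%, interval 2.16 to 4.01%), 49 of 1061 in replicate 3 (4.62%, interval 3.44 to 6.06%) and 86 of 3848 in the aged library (2.23%, interval 1.79 to 2.75%). In windows of the same size centred 500 bp to either side it was found in 1.57%, 1.67%, 1.79% and 1.27%. Summits exceeded flanks in 4 of 4 libraries, by 1.91 ± 0.914 percentage points (SD, n = 4, exact sign-flip permutation test, two-sided p = 0.13, adjusted p = 0.13). For reference, 1.67% of the 21755 protein-coding promoters held the motif in a window of the same size just upstream of the gene start, as did 0.805% of the summits of H3K27ac promoter peaks without mJunB.

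Distal mJunB peaks with H3K27ac held the motif more often, at 5.86%, 5.91%, 7.69% and 4.77% of summits. Members were lower in 4 of 4 libraries, with differences of -1.74, -2.93, -3.07 and -2.53 percentage points and a mean of -2.57 ± 0.598 (SD, n = 4, exact sign-flip permutation test, two-sided p = 0.13, adjusted p = 0.13). At promoters without H3K27ac the share was 7.84%, 6.65%, 8.25% and 3.99%. The aged library was the lowest of the 4 at members and at both of these classes.

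**Figure D4:**
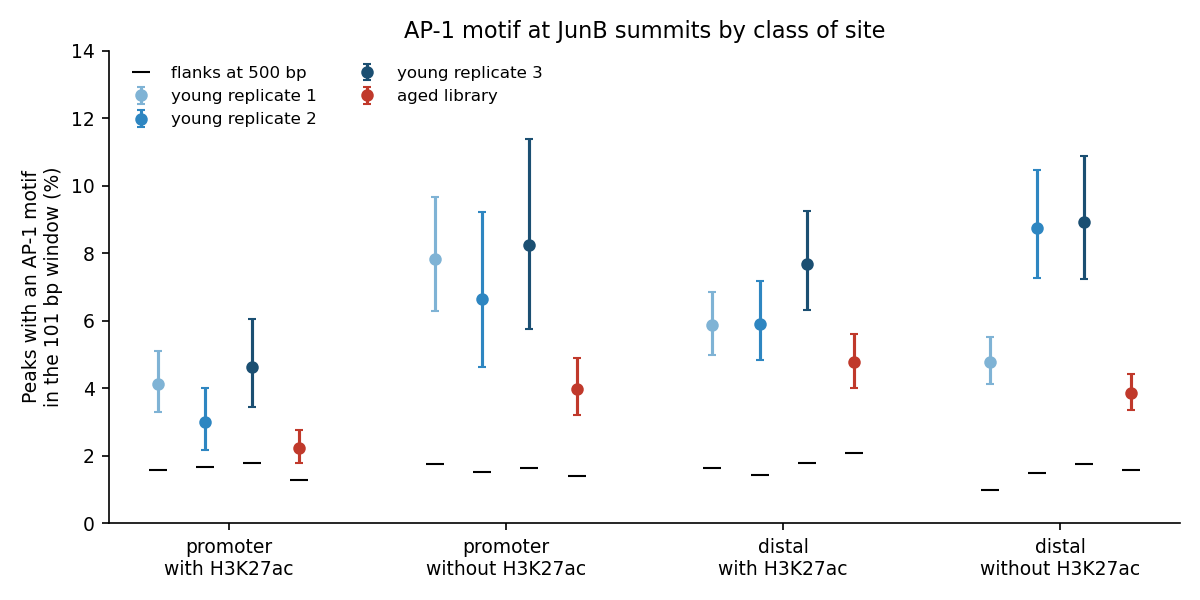
Points give the percent of mJunB peaks with an AP-1 motif within 50 bp of the summit, by class of site and library, with exact 95% binomial intervals, and black dashes give the flanks at 500 bp. At members the points lie between 2.23% and 4.62%, below those of distal peaks with H3K27ac in each library.

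Among the members, the motif was most frequent beyond 500 bp from a TSS in each library, at 5.65%, 5.49%, 6.54% and 4.69% of peaks. Where the region spanned a TSS the shares were 2.81%, 1.84%, 3.95% and 1.97%, and from 1 to 500 bp they were 5.31%, 2.98%, 4.11% and 1.23%, so that in the aged library the middle range was the lowest. Aged-only members had it at 1.33% of summits (interval 0.880 to 1.93%), whereas the aged peaks of members in all 4 libraries had it at 3.63% (interval 2.44 to 5.17%).

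Other promoter motifs were sought in the same windows on both strands. The GC box (GGGCGG), bound by Sp proteins, was present at 13.8 ± 2.74% of member summits (SD, 4 libraries) and 10.04% of their flanks, with 2.73 ± 0.278% at distal peaks with H3K27ac. The CCAAT box (CCAAT), bound by NF-Y, was at 12.96 ± 0.681% of summits and 10.6% of flanks, and the ETS motif (CCGGAAG) at 2.59 ± 0.952% and 1.38%. All 3 were higher at summits than in flanks in 4 of 4 libraries, while the TATA box (TATAAA) was lower in 4 of 4, at 2.87% against 4.64%. Of the other 4 sequences searched, 3 were higher at summits in 4 of 4 libraries. These were the E-box CAGCTG (6.17% against 5.02%), the NRF1 motif GCATGCGC (0.757% against 0.351%) and the YY1 motif AAGATGGC (0.829% against 0.541%). The CRE TGACGTCA (0.353% against 0.177%) was higher in 3 of 4. At distal peaks with H3K27ac these sequences were at 7.98%, 0.197%, 0.299% and 0.0579%, so only the E-box was less frequent at members. The NRF1, YY1 and CRE shares rest on few peaks, as for YY1 in young replicate 2 with 8 of 1407 summits. In the promoter windows of all protein-coding genes the GC box, CCAAT box, ETS motif and TATA box were found in 31.2%, 21.1%, 5.62% and 5.75%, and the E-box, NRF1, YY1 and CRE sequences in 5.26%, 1.87%, 0.556% and 1.54%. At the summits of H3K27ac promoter peaks without mJunB the first 4 were at 6.78%, 10.4%, 1.88% and 3.27%. The E-box, NRF1, YY1 and CRE sequences were there at 8.01%, 0.330%, 0.584% and 0.102%.

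Base composition differed between members and distal mJunB sites. In 301 bp around the summit, GC content had medians of 54.2%, 54.5%, 53.8% and 57.5%, against 48.1 ± 0.166% at distal peaks with H3K27ac (SD, n = 4) and 56.8% at protein-coding promoters. The CpG observed-to-expected ratio, high in CpG islands, had medians of 0.541, 0.563, 0.532 and 0.679 at members and 0.232 ± 0.00707 at distal peaks with H3K27ac. It fell with distance: in the aged library it was 0.766 where the region spanned a TSS and 0.276 beyond 500 bp.

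Among the genes of the AP-1 family itself, 9 of 19 (47.4%) had a member within 3 kb, against 19.1% of all protein-coding genes, and 12 of 19 had an H3K27ac promoter peak. Here and for the lists below, 1 member can serve several genes. The nearest TSS can be that of another gene, as at Atf2, Ccl25, Srsf2, Ubb, Cdkn2d and 1 region of Srf. The lists were drawn up with earlier results of these data known, and all values given for single genes are mJunB fold enrichment. Jun, the founding Jun gene, had a member over its TSS in all 4 libraries, with 4.88, 5.96, 6.77 and 4.70. Fosb, a Fos gene, had 12.2 and 7.29 in young replicates 1 and 2 against 7.55 in the aged library. Fos had 4.70 in young replicate 1 against 4.82 in the aged library.

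Of the other members of the family, Atf7 had 5.81 in young replicate 1 against 7.82 in the aged library. The Batf2 region spans its TSS and one of Arl2. It had 7.43 and 9.66 in young replicates 2 and 3 against 6.89 in the aged library. Jund had 2 regions with an aged peak only (3.77 and 5.68), and Atf2 (4.67) and Mafg (7.07) had 1 each. Jdp2, a repressor of AP-1, had a peak in young replicate 1 only (4.57). Junb itself was not among the 9.

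**Figure D5:**
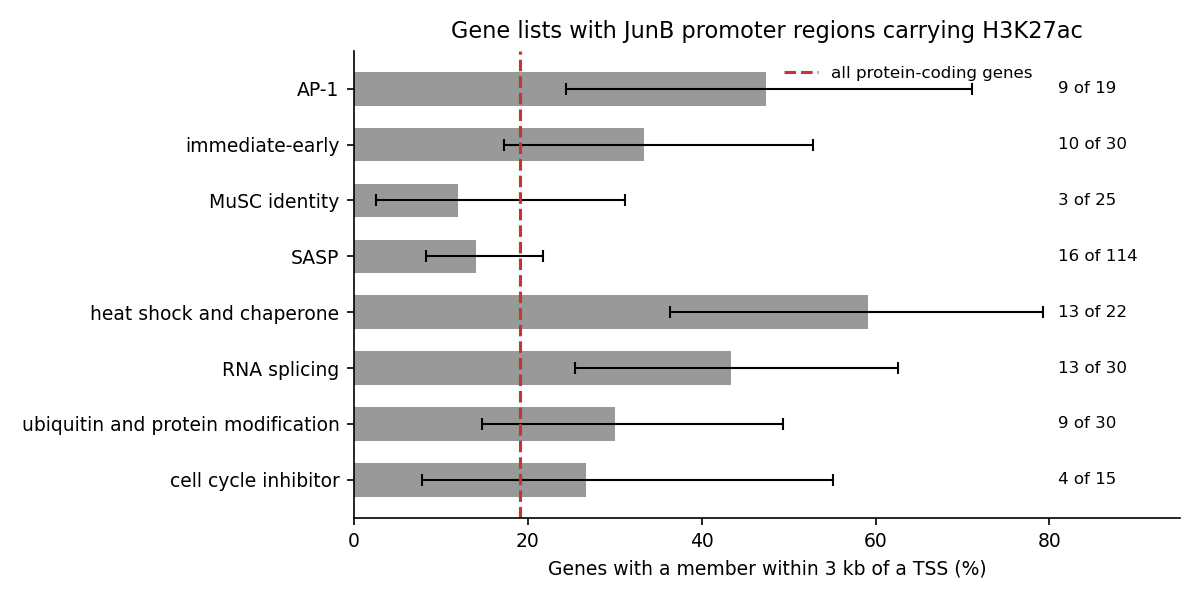
Bars give the percent of the genes of each list with a member within 3 kb of a TSS, with exact 95% binomial intervals and the counts at the right, and the dashed line marks the 19.1% of all protein-coding genes. Chaperone and AP-1 genes have the highest shares, and MuSC identity and SASP genes lie below the line.

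Immediate-early genes, which are switched on within minutes of a stimulus, had a member at 10 of 30 (33.3%). The interval of 17.3 to 52.8% includes the 19.1% of all protein-coding genes. Zfp36, which destabilises cytokine mRNAs, had a member with 12.3, 10.7, 10.7 and 6.14, beside a weak one in young replicate 1 (4.08). Trib1, a pseudokinase, had 12.3, 11.9, 12.02 and 6.07, and the clock gene Per1 had 5.81, 5.52, 5.50 and 4.87. These 3 were in all 4 libraries, with the aged value lowest in each.

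Egr1 and Klf4, zinc finger transcription factors, had peaks in young replicates 1 and 2 (4.35 and 6.59, and 6.23 and 6.26) and in the aged library (5.68 and 5.30). Klf10, another of these factors, had 6.68 in young replicate 2 against 5.50 in the aged library. Srf, the serum response factor, had 1 region with 4.98 in young replicate 1 against 5.90 in the aged library and another in the aged library only (3.86). Btg2 (3.21) and Arc (3.29) had aged peaks only, and Myc had a peak in young replicate 1 only (4.57).

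MuSC identity genes had a member at 3 of 25 (12.0%, interval 2.55 to 31.2%, which includes the 19.1% of all genes), and 18 of the 25 had an H3K27ac promoter peak. Myod1, the factor that commits MuSCs to myogenesis, had a member 1 bp from its TSS (chr7:46375993-46376473) in all 4 libraries, with 8.02, 6.99, 7.47 and 4.66. Vcam1, the adhesion molecule used to sort MuSCs, had an aged peak (4.41), and Met, the receptor of hepatocyte growth factor, a peak in young replicate 1 (5.40).

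Of the 114 SASP genes, mostly secreted factors and receptors, taken from the study's own gene set and so not independent evidence, 49 had an H3K27ac promoter peak and 16 (14.04%, interval 8.24 to 21.8%) a member, so the interval includes the 19.1% of all protein-coding genes. In all 4 libraries there were 4. Tubgcp2, a listed gene of the gamma-tubulin complex that is not one of the secreted factors or receptors, had 8.31, 9.84, 9.64 and 12.5. It was the only one of the 4 with the aged value highest. The other 3 were Il12a, a subunit of interleukin-12 (8.87, 9.22, 10.2 and 6.06), Il2 (12.3, 8.91, 10.2 and 5.43, 2273 bp from the TSS) and the chemokine Ccl2 (7.19, 6.68, 7.84 and 5.49, 2042 bp from the TSS).

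Aged peaks without a young one were found at 6 of the 16 SASP genes, against 2048 of the 4154 protein-coding genes with a member. These were the TNF receptor Tnfrsf1a (6.89), the death receptor Fas (5.61), the chemokines Ccl25 (5.18), Cxcl1 (4.97) and Ccl27a (4.60), and Il7 with 2 regions (4.15 and 4.67). Young peaks without an aged one were found at 3, namely Gdf15 (4.57 in replicate 1 and 6.42 in replicate 3), Il1r1 (4.28 in replicate 1) and Egfr (3.32 in replicate 1). Without young replicate 1, the only library at the last 2, 14 SASP genes had a member, and without the aged library 10 had one.

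The other 3 had peaks in both. The receptor Tnfrsf1b had 6.23 in young replicate 1 against 4.60 in the aged library, and the death ligand Tnfsf10 had 8.26 and 7.73 in the same libraries. Egf had 2 regions, with 6.14 in young replicate 2 against 4.49 in the aged library and with 4.98 in young replicate 1 against 4.23 in the aged library.

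Heat shock and chaperone genes had the highest share of the lists, with a member at 13 of 22 (59.1%, interval 36.4 to 79.3%) and H3K27ac promoter peaks at 21. The strongest by any library were at Dnajb6, a DnaJ co-chaperone (8.72, 9.44, 7.12 and 9.58), Hsph1 (8.10, 7.88, 8.14 and 9.13), Hspa1b, an inducible Hsp70 gene (6.53 and 8.48 in young replicates 1 and 2 against 4.57 in the aged library), and Hspa9 (5.52 and 6.63 in the same young libraries and 7.51 in the aged library). In Hsph1 the aged value was the highest of 4 and in Dnajb6 it exceeded the young ones by less than they differed among themselves.

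RNA splicing genes had a member at 13 of 30 (43.3%), all with an aged peak and 9 of them without a young one. Over all protein-coding genes with a member, 3908 of 4154 had an aged peak and 2048 an aged one only. The strongest spanned a TSS of Hnrnpa1 and one of Cbx5 and had 18.9, 16.3, 19.5 and 8.85. Ddx5, an RNA helicase, had 5.81 and 7.71 in young replicates 1 and 2 against 8.86 in the aged library, Srsf1 had an aged peak only (7.94), and Srsf2 had 6.29 and 5.06 in the same young libraries and 6.87 in the aged one.

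Ubiquitin and protein modification genes had a member at 9 of 30 (30.0%), an interval of 14.7 to 49.4% that includes the 19.1% of all genes. All 9 had an aged peak, as had 3908 of the 4154 protein-coding genes with a member. Ubb, a polyubiquitin gene, had 5.83, 5.66, 6.55 and 6.10. Rbx1, a subunit of cullin ligases, had an aged peak only (8.67), and Ube2b, a conjugating enzyme, had 8.28 in young replicate 2 against 6.61 in the aged library.

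Cell cycle inhibitors had a member at 4 of 15 (26.7%), with an interval of 7.79 to 55.1% that includes the 19.1% of all genes. Cdkn1a, which encodes the inhibitor p21, had a region 1165 bp from its TSS and nearer to the TEC model AC167363.2 (chr17:29094946-29095586), with 17.3, 14.8, 12.98 and 11.8. Ccng2 (8.46) and Mdm4 (3.90) had aged peaks only, and Cdkn2d had 5.51 and 5.19 in young replicates 1 and 2 against 4.68 in the aged library. Set against the genes with an H3K27ac promoter peak, of which 38% had a member over all genes, the shares were 75% for AP-1, 61.9% for chaperone, 45.5% for immediate-early, 44.8% for splicing, 32.7% for SASP, 31.0% for ubiquitin, 30.8% for cell cycle inhibitor and 16.7% for MuSC identity genes.

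Of the marker genes of other cell types, members were found at Tek (endothelial), Myh1 (myofibre) and Acta2 (smooth muscle), 1 gene of 5 in each list, and at 0 of 5 fibro-adipogenic progenitor and 0 of 5 immune genes.

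Members were spread over all 20 chromosomes, from 58 on the X chromosome to 366 on chromosome 7. Of the H3K27ac promoter peaks, 16.1% overlapped an mJunB peak on the X chromosome, against 22.3% to 32.8% on the autosomes.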

How the data were processed

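CUT&RUN-seq peaks of 3 young and 1 aged mJunB library and of 1 H3K27ac library were used, grouped by the sample labels. Per the labels and methods, the authors used Bowtie2 for alignment to mm10, and MACS2 for peak calling on non-redundant reads, library by library (p cutoff 0.001 in the methods). Their versions are not given in the sources used here. The deposited lists give fold enrichment (a ratio over local background), −log10 p, −log10 q and a score, which was not used. The lists hold no read-count column, so the depth is unknown.

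Peaks were merged at a gap of 0 bp and assigned to GENCODE M21 transcript starts by edge distance. A member's gene is that of the nearest TSS, but in the gene lists every gene with a TSS within 3 kb of a member was counted. Ties for the nearest TSS went to the protein-coding gene and then to the alphabetically first. Sequence came from RefSeq GRCm38.p6. Python 3.11.15, NumPy 2.4.6 and SciPy 1.17.1 were used. Merging, overlap, distance, motif search and the exact test were tested on simulated data (7 of 7 checks), with bedtools 2.31.1 for merging and overlap.

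Members, gene lists and tests were chosen with earlier results of these data known. Named were the 10 strongest members in all 4 libraries (outside the 20 most significant H3K27ac peaks), the 5 strongest aged-only and young-only ones, every AP-1, immediate-early, MuSC identity and SASP gene with a member, up to 4 genes of other lists, 2 per non-coding type with 20 or more members, and the members at the limits of the rule. Alternatives covered the merge gap, the TSS window and annotation, the overlap, the thresholds, peak number, each library and the motif window. A listed gene and a summit sequence are not reported here.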

Additional observations from a re-analysis of the deposited data

Results flagged for a closer look

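The mitochondrial genome, which the comparisons above leave out, held mJunB peaks within 3 kb of a TSS that overlapped an H3K27ac peak. There were 4 in young replicate 1, 6 in replicate 2 and 4 in replicate 3, and 3 in the aged library. The young counts are listed because they exceed 3, the limit that a count of 0 allows, and this says nothing of a difference between ages. These peaks are not members, and what the H3K27ac signal on the mitochondrial genome reflects was not tested.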

How the results depend on the processing

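No paired analysis was possible because the aged group has 1 library, whose label gives no replicate number (it is numbered 1 here as a name only), so the groups share fewer than 2 numbers. The 3 differences tested over libraries kept the sign of their mean under every alternative run, with ranges of 0.686 to 6.18 and -6.03 to -1.02 percentage points for the motif at summits against flanks and against distal peaks and 0.227 to 0.587 for fold enrichment. For fold enrichment, not every library was above 0 with 1 start per gene, with at least 50% of the region or the mJunB summit in H3K27ac (exact permutation p = 0.25 for each) and with H3K27ac −log10 q of at least 10 (exact permutation p = 0.375). None of the p values could pass 0.05 in this design.

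The number of members was 2763 with H3K27ac peaks of −log10 q of at least 10 and 1086 with the 2000 strongest peaks per library, and 2182 to 4216 with 1 library left out, the lowest being without the aged one. The share in all 4 libraries moved to 17.4% (1 kb window), 17.0% (protein-coding transcripts), 19.9% (mJunB −log10 q of at least 2), 27.7% (2000 strongest) and 21.1% (a common −log10 p limit of 5.33, added after seeing the data, as was leaving out the members at the 20 strongest H3K27ac peaks). The aged-only share moved to 51.2% (1 kb), 46.0% (5 kb), 51.4% (protein-coding transcripts), 49.6% (1 start per gene), 45.9% (−log10 q), 27.8% (2000 strongest) and 42.8% (common −log10 p), and was 49.3% to 61.1% without a young library. The share within 500 bp of a TSS moved to 92.9% (1 kb), 73.2% (5 kb), 86.0% (protein-coding transcripts), 82.1% (at least 50% of the region in H3K27ac), 85.5% (H3K27ac −log10 q) and 77.3% (2000 strongest), and was 72.8% to 82.1% with 1 library left out. The protein-coding share moved to 87.5% (1 kb), 81.4% (5 kb), 79.96% (1 start per gene), 85.5% (H3K27ac −log10 q) and 80.9% (2000 strongest), and was 79.5% to 84.8% with 1 library left out, lowest without the aged one. SASP genes with a member numbered 4 with the 2000 strongest peaks and 10 to 16 with 1 library left out. The cause of these shifts was not tested beyond the fewer peaks, starts or libraries that each setting keeps.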
